A study of Homo sapiens with 2 samples.

Results

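The 38 genes described here belong to the cell's response to low oxygen and to glycolysis. They were measured in PC3 cells, an established, metastasis-derived human prostate cancer line, after depletion of SUB1, a nuclear protein that binds single-stranded DNA and acts as a transcriptional coactivator. Of the 38 genes, 36 had a probe past the filter on dim signal, among 19218 genes tested in all. The members were chosen by name: every gene probe whose gene name on the array was one of the 38 names or an older alias of one. They comprised 6 regulators of the hypoxia-inducible factors (HIF), 11 HIF targets outside glycolysis, 3 glucose and lactate transporters and 18 glycolytic enzymes. EGLN3, a HIF prolyl hydroxylase, and SLC2A3, the glucose transporter GLUT3, had no probe past the filter and are not described further.

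Both arrays were dual-colour Agilent arrays of 1 slide. The Cy3 channel held RNA of cells given a Non-targeting (Non-T) siRNA and the Cy5 channel RNA of SUB1-depleted cells: SUB1 siRNA 1 on the first array, SUB1 siRNA 2 on the second. All cells were transfected a second time 24 h after the first transfection and harvested 72 h after it. Dyes were not swapped, so dye and knockdown cannot be told apart for any single probe. Each siRNA has 1 array, and the sources used here do not say whether the Non-T RNA on both came from the same culture. The p-values rest only on the spread between these 2 arrays, which limma moderates for each gene toward the spread over all genes. In bulk RNA, fewer cells that express a gene and less of its RNA per cell cannot be told apart. Signals are given as normalised intensities in arbitrary units, and changes as log2 of Cy5 over Cy3 after loess on each array.

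SUB1 itself was measured by 4 probes. The brightest read 8685 with Non-T siRNA and 882 with SUB1 siRNA 1, and 7590 with Non-T siRNA and 791 with SUB1 siRNA 2, which leaves 10.2% and 10.4% of the control signal. Across the 4 probes, the log2 ratio lay between -3.75 and -1.81 for siRNA 1, and between -3.50 and -1.57 for siRNA 2. With limma's moderated test of the mean of both siRNAs against 0, SUB1 was the only gene of 19218 past a Benjamini-Hochberg adjusted p of 0.05 (0.0052% of genes). Keratin 8, keratin 18, vimentin, CD44 and EPCAM, all known in PC3 cells, read between 820 and 37527; of these, CD44 was 1.78-fold and 2.05-fold lower with SUB1 siRNA. KLK2, a prostate gene that PC3 cells are known to hardly express, read at most 105. The probes of KLK3 disagreed: 1 read between 19912 and 24797, another between 83.7 and 93.5, and the third was not past the filter. Of 6 markers of fibroblasts, leukocytes and endothelium, COL1A2 and PTPRC were not past the filter and the other 4 read at most 227, the highest being COL1A1, with log2 ratios of 0.66 and 0.45.

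HIF is a pair of proteins: an oxygen-sensitive subunit, HIF-1α (HIF1A) or HIF-2α (EPAS1), and a stable partner, ARNT. In oxygen, prolyl hydroxylases such as EGLN1 mark the sensitive subunit, VHL recognises the mark and the subunit is degraded; in hypoxia it persists, enters the nucleus with ARNT and binds hypoxia response elements, whose core is the letters ACGTG or GCGTG. Its targets bring in blood vessels and glucose, speed glycolysis, export lactate, hold pyruvate away from mitochondria and remove damaged mitochondria. These arrays measure RNA, and HIF activity is set largely at the level of the protein.

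The promoters below are printed because the letters of the HIF core stand in them. They belong to 4 HIF targets whose signal was higher with both siRNAs (ADM, HK2, PDK1 and BNIP3), to ENO1, the member with the largest decrease, and to LDHA, whose ratios have no settled sign across probes and normalisations. Each is the stretch of 250 bases before a RefSeq start in GRCh38.p14, written 5′ to 3′ along the gene's strand, with every ACGTG or GCGTG on either strand in capitals (CACGT and CACGC are the same letters read from the other strand). The letters CACGTG are an E-box, which other factors also bind, and hold ACGTG on both strands.
ADM: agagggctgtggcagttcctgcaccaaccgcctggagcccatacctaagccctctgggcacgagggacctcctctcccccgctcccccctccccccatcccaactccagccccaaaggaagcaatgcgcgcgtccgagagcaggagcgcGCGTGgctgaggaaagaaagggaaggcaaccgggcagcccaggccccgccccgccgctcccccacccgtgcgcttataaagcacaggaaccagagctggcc
HK2: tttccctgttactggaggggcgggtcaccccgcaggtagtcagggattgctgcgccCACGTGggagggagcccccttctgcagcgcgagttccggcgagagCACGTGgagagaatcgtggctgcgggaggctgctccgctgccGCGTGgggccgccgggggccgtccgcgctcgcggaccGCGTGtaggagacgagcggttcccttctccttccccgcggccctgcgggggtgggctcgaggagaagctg
PDK1: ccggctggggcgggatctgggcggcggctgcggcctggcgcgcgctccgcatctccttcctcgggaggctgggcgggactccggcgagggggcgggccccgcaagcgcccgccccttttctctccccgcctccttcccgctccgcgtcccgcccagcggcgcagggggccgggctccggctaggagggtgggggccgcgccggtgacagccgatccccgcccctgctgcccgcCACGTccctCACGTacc
BNIP3: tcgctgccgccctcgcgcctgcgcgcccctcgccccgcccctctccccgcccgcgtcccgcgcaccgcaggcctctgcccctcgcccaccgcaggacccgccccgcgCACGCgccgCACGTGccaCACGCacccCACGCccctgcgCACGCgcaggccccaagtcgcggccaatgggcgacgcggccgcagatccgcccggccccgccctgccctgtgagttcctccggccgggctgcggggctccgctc
ENO1: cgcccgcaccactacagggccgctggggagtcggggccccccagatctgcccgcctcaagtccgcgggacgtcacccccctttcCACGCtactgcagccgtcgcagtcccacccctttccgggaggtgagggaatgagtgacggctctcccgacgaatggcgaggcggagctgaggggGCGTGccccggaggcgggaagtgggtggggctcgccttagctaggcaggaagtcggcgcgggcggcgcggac
LDHA: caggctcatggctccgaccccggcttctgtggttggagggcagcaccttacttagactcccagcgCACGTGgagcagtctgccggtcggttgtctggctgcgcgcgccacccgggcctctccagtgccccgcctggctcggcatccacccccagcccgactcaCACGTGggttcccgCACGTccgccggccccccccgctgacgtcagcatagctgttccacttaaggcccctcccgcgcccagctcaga

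These stretches lie at chr11:10304823-10305072 (plus strand) for ADM, chr2:74834920-74835169 (plus strand) for HK2, chr2:172555840-172556089 (plus strand) for PDK1, chr10:131981924-131982173 (minus strand) for BNIP3, chr1:8878687-8878936 (minus strand) for ENO1 and chr11:18394313-18394562 (plus strand) for LDHA. HK2, PDK1 and LDHA have 2 listed starts each, of which the stretch with more of these letters is shown. Counted by position and strand, HK2 and BNIP3 each held 6 matches, LDHA 5, PDK1 and ENO1 2 each and ADM 1. An E-box stood 2 times in HK2, 2 times in LDHA and 1 time in BNIP3. LDHA thus held more of them than ADM or PDK1.

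Over all members, 33 had an entry in the promoter table, and 29 of these 33 (87.9%) held the letters in at least 1 window of 250 bases before to 50 bases after a start. The share was 52.4% of all 27305 genes in the table. Among genes tested on the arrays it was 29 of 32 members (90.6%) against 68.2% of 10512 genes. By window, 41 of 62 member windows (66.1%) and 48.4% of all 35116 windows held a match. ARNT, EGLN3, P4HA2 and PGAM1 held none in these windows. VHL, VEGFA, NDRG1, BNIP3L and SLC2A3 have no entry. A match is a run of letters, not a measured binding site.

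Among the regulators, HIF1A was lower with both siRNAs. Its signal was 1173 with Non-T siRNA and 765 with SUB1 siRNA 1 on the first array, and 1225 with Non-T siRNA and 788 with SUB1 siRNA 2 on the second. Both SUB1 values lay below both Non-T values. The log2 ratio was -0.62 with siRNA 1 and -0.64 with siRNA 2, or 1.53-fold and 1.55-fold lower. The mean was -0.63 ± 0.09 (limma's moderated SE, n = 2, which draws on the spread of all genes), and limma's adjusted p was 0.114. The HIF1A probe (hg18 chr14:61284598-61284657) was spotted 10 times on each array. The SD over spots, a spread within 1 array, was 0.066 and 0.086 in log2 units. With median centring in place of loess the decrease was under 1.5-fold, at -0.40 and -0.41.

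EPAS1, the HIF-2α subunit, was higher with both siRNAs, and more so with siRNA 1. Its brightest probe read 1365 with Non-T siRNA and 2548 with SUB1 siRNA 1 on the first array, and 1330 with Non-T siRNA and 1715 with SUB1 siRNA 2 on the second. The ratios were 0.90 with siRNA 1 and 0.37 with siRNA 2. A second EPAS1 probe, dim at about 100 units, gave 0.09 and -0.01, so the increase rests on 1 probe. ARNT, the shared partner, read only 124 and 133 in the Non-T channels. Its ratios were 0.57 with siRNA 1 and 0.28 with siRNA 2, and those of its second probe 0.19 and 0.06.

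EGLN1, the main oxygen-sensing prolyl hydroxylase, went opposite ways with the 2 siRNAs. The brightest probe read 1261 with Non-T siRNA and 1513 with SUB1 siRNA 1 on the first array, and 1293 with Non-T siRNA and 774 with SUB1 siRNA 2 on the second. The siRNA 1 value lay above both Non-T values and the siRNA 2 value below them. The ratios were 0.26 with siRNA 1 and -0.74 with siRNA 2, and the other 2 probes gave 0.16 and 0.26 with siRNA 1 and -0.49 and -0.30 with siRNA 2. All 3 probes of EGLN1 were thus above 0 with siRNA 1 and below 0 with siRNA 2.

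The array names 2 probes for VHL, the factor that targets hydroxylated HIF for degradation. The brighter one, with ratios of 0.41 and 0.44, is placed by the array files at hg18 chr9:35433128-35433495, while VHL lies on chromosome 3. The probe on chromosome 3 (hg18 chr3:10167375-10167434) read about 140 units with Non-T siRNA on the first array and gave 0.09 and 0.27. The larger values are therefore not taken as a level of VHL. It was the only 1 of 68 member probes placed on another chromosome than its gene.

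**Figure D1:**
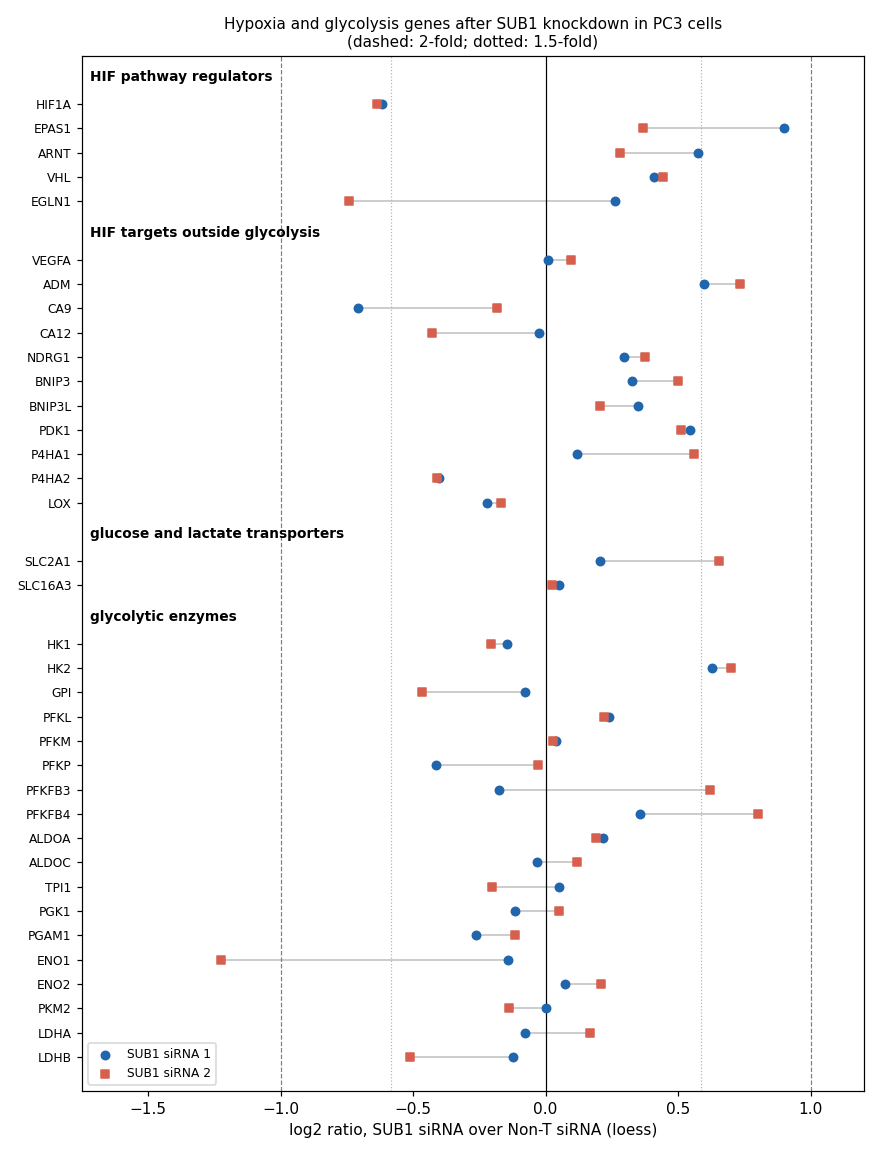
Log2 of Cy5 (SUB1 siRNA) over Cy3 (Non-T siRNA) after loess (horizontal axis) for the 36 members past the filter, by group; circles are SUB1 siRNA 1, squares SUB1 siRNA 2, 1 array each, and the lines mark 1.5-fold and 2-fold. ENO1 with siRNA 2 (-1.23) is the only point past 2-fold, EGLN1 and ENO1 have the widest gaps between siRNAs, and the VHL points come from the probe placed on chromosome 9; with median centring in place of loess the median of the 36 moves from 0.04 and 0.11 to 0.32 and 0.40, and ENO1 with siRNA 2 to -0.84.

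The HIF targets outside glycolysis had medians slightly above that of all genes, with most ratios under 1.5-fold. Their median log2 ratio was 0.12 with siRNA 1 and 0.21 with siRNA 2, beside 0.02 over all genes with either siRNA. With each siRNA, 7 of the 11 (63.6%) were above 0 and 4 below, beside 54.1% and 53.5% of all genes above 0. The median signal of the group was 1815, against 262 over all genes tested.

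ADM, which encodes the vasodilator peptide adrenomedullin, had the highest mean ratio of the group. Its signal was 5346 with Non-T siRNA and 8092 with SUB1 siRNA 1 on the first array, and 5405 with Non-T siRNA and 8996 with SUB1 siRNA 2 on the second. Both SUB1 values lay above both Non-T values, which differed from each other by 0.02 on the log2 scale. The ratios were 0.60 with siRNA 1 and 0.73 with siRNA 2, 1.51-fold and 1.66-fold higher, with an SD over its 10 spots of 0.047 and 0.071 and an adjusted p of 0.114 by limma. ADM was measured at hg18 chr11:10285356-10285415, and its promoter holds a single GCGTG in the stretch printed above.

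PDK1, the kinase that shuts pyruvate dehydrogenase and so keeps pyruvate from mitochondria, was higher by nearly the same amount with both siRNAs. Its brightest probe went from 1038 to 1515 on the first array and from 1080 to 1537 on the second. The ratios were 0.55 with siRNA 1 and 0.51 with siRNA 2, while a dimmer probe gave 0.03 and 0.13. BNIP3 and BNIP3L, receptors for the removal of mitochondria, were also higher: BNIP3 went from 18637 to 23342 on the first array and from 18021 to 25476 on the second, ratios 0.32 and 0.50. BNIP3L had ratios of 0.35 and 0.21 at its brightest probe, and -0.05 and 0.37 at its second. NDRG1, a stress-induced gene long used as a hypoxia marker, went from 23330 to 28640 on the first array and from 23389 to 30331 on the second, ratios 0.30 and 0.37, with 0.20 and 0.22 at its second probe.

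The collagen-modifying enzymes did not move together. P4HA1, the catalytic subunit of a prolyl 4-hydroxylase, had ratios of 0.12 and 0.56. P4HA2, its paralog, was lower on both arrays: it went from 6571 to 4968 on the first array and from 6502 to 4892 on the second. Its ratios were -0.40 and -0.41, and its second probe gave -0.55 and -0.42. LOX, which crosslinks collagen, read 129 and 125 with Non-T siRNA and had ratios of -0.22 and -0.17.

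The carbonic anhydrases, which handle the acid that glycolysis produces, had ratios below 0 with loess, but not under every normalisation. CA9, among the most hypoxia-specific of HIF targets, read 2187 with Non-T siRNA and 1337 with SUB1 siRNA 1 on the first array, and 2069 with Non-T siRNA and 1823 with SUB1 siRNA 2 on the second. The siRNA 1 value was 1.64-fold lower, and the siRNA 2 value 1.14-fold lower, which turned to 0.07 on the log2 scale with median centring. CA12 had ratios of -0.03 and -0.43 at its brightest probe (0.26 and -0.14 with median centring), and its 3 kept probes lay between -0.22 and 0.29 for siRNA 1, and between -0.49 and -0.06 for siRNA 2.

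VEGFA, the main angiogenic HIF target, stayed near its control. The brightest probe read 428 with Non-T siRNA and 431 with SUB1 siRNA 1 on the first array, and 401 with Non-T siRNA and 428 with SUB1 siRNA 2 on the second. Its ratios were 0.01 and 0.09, and its 4 probes lay between -0.21 and 0.22 for siRNA 1, and between -0.12 and 0.59 for siRNA 2. The probe spotted 10 times gave -0.06 and 0.24. With the probes this far apart, no direction can be given for VEGFA.

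**Figure D2:**
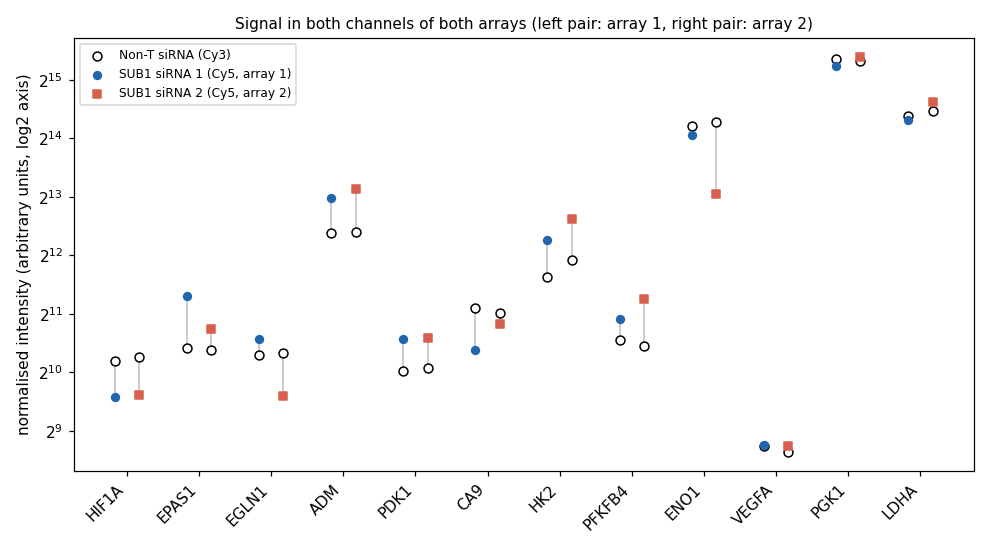
Normalised intensity (log2 axis, arbitrary units) of 12 members in both channels: open circles are Non-T siRNA, filled circles SUB1 siRNA 1 and squares SUB1 siRNA 2, with array 1 left and array 2 right for each gene and no error bar, since each point is 1 channel of 1 array. HIF1A lies below its control on both arrays, ADM, PDK1, HK2 and PFKFB4 lie above theirs, and ENO1 lies far below its control on array 2 only.

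Of the transporters, SLC2A1, which encodes the glucose transporter GLUT1, was higher mainly with siRNA 2. Its signal was 2911 with Non-T siRNA and 3354 with SUB1 siRNA 1 on the first array, and 2828 with Non-T siRNA and 4450 with SUB1 siRNA 2 on the second. The ratios were 0.20 with siRNA 1 and 0.65 with siRNA 2. SLC16A3, the lactate exporter MCT4, was among the brightest members at 45221 and 44947 with Non-T siRNA, and its ratios were 0.05 and 0.02.

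The 18 glycolytic enzymes were spread around 0: the median was -0.05 for siRNA 1 and 0.04 for siRNA 2. With siRNA 1, 8 were above 0 and 10 below; with siRNA 2, 10 above and 8 below. Over all genes, 54.1% and 53.5% were above 0. The median signal of the enzymes was 5676. With median centring the same medians were 0.29 and 0.30, beside 0.13 and 0.12 over all genes. Where the sign of an enzyme's ratio changes with the normalisation, no direction is given for it.

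HK2, the inducible hexokinase, was the enzyme with the highest mean ratio. It read 3176 with Non-T siRNA and 4909 with SUB1 siRNA 1 on the first array, and 3864 with Non-T siRNA and 6276 with SUB1 siRNA 2 on the second. Both SUB1 values lay above both Non-T values, although the Non-T values themselves differed by 0.28 on the log2 scale, the widest such gap among the members. The ratios were 0.63 with siRNA 1 and 0.70 with siRNA 2, 1.55-fold and 1.62-fold higher, adjusted p 0.114 by limma. Its second probe, at about 155 units, gave 0.15 and 0.27, and the mean over both probes was 0.44, under 1.5-fold. HK1, the constitutive hexokinase, had ratios of -0.15 and -0.20, and 0.11 and 0.07 with median centring.

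The bifunctional enzymes PFKFB3 and PFKFB4 set the level of fructose 2,6-bisphosphate, the activator of phosphofructokinase. PFKFB4 went from 1499 to 1922 on the first array and from 1401 to 2443 on the second, with ratios of 0.36 and 0.80. PFKFB3 had ratios of -0.18 and 0.62 at its brightest probe (0.03 and 0.85 with median centring), and its other 3 probes, near 100 units, gave -0.33 to -0.01 and -0.21 to 0.02. The phosphofructokinase subunits had ratios of 0.24 and 0.22 (PFKL), 0.04 and 0.03 (PFKM) and -0.41 and -0.03 (PFKP), and with median centring 0.48 and 0.47, 0.29 and 0.29, and -0.10 and 0.31.

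ENO1, the main enolase, was the only member past 2-fold, and only with siRNA 2. Its signal was 18918 with Non-T siRNA and 17149 with SUB1 siRNA 1 on the first array, and 19914 with Non-T siRNA and 8515 with SUB1 siRNA 2 on the second. The siRNA 2 value was under every other value of the probe. The ratios were -0.14 with siRNA 1 and -1.23 with siRNA 2, the latter 2.34-fold lower, and a second probe next to it on chromosome 1 gave -0.39 and -1.39. With median centring the ratios were 0.24 and -0.84, so the 2-fold call ends and the siRNA 1 value changes sign, while the gap between siRNAs stays. Both probes showed that gap (hg18 chr1:8846548-8846607 and chr1:8846641-8846700). ENO2, the neuronal enolase, had ratios of 0.07 and 0.21.

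GPI and LDHB leaned the same way as ENO1 with siRNA 2. GPI, the isomerase after hexokinase, had ratios of -0.08 and -0.47, and LDHB, the lactate dehydrogenase subunit of oxidative tissue, -0.12 and -0.51. With median centring both means turned above 0 (0.08 and 0.05). The siRNA 1 values were then 0.27 and 0.24, while the siRNA 2 values stayed below 0, at -0.11 and -0.14. LDHA, the subunit that favours lactate, read 21482 with Non-T siRNA and 20373 with SUB1 siRNA 1 on the first array, and 22593 with Non-T siRNA and 25350 with SUB1 siRNA 2 on the second. Its ratios were -0.08 and 0.17, and its other 2 probes gave -0.45 to -0.36 and -0.11 to -0.09. With median centring the brightest probe gave 0.32 and 0.59.

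PGK1, a classic HIF target and the first ATP-yielding step of glycolysis, was among the brightest genes. It read 41815 with Non-T siRNA and 38569 with SUB1 siRNA 1 on the first array, and 41280 with Non-T siRNA and 42787 with SUB1 siRNA 2 on the second. Its ratios were -0.12 and 0.05, and with median centring they were 0.32 and 0.53. The SD over its 10 spots, a spread within 1 array, was 0.061 and 0.086. With loess its 4 kept probes lay between -0.36 and 0.18 for siRNA 1, and between -0.11 and 0.43 for siRNA 2. The remaining steps had, with loess, these ratios: ALDOA 0.22 and 0.19, ALDOC -0.03 and 0.12, TPI1 0.05 and -0.20, PGAM1 -0.26 and -0.11 and PKM, listed as PKM2 on the array, 0.00 and -0.14. With median centring ALDOA stood at 0.62 and 0.61, past 1.5-fold, and TPI1 at 0.40 and 0.16, while PGAM1 turned to 0.08 and 0.25. The second ALDOA probe gave -0.02 and -0.08 with loess.

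**Figure D3:**
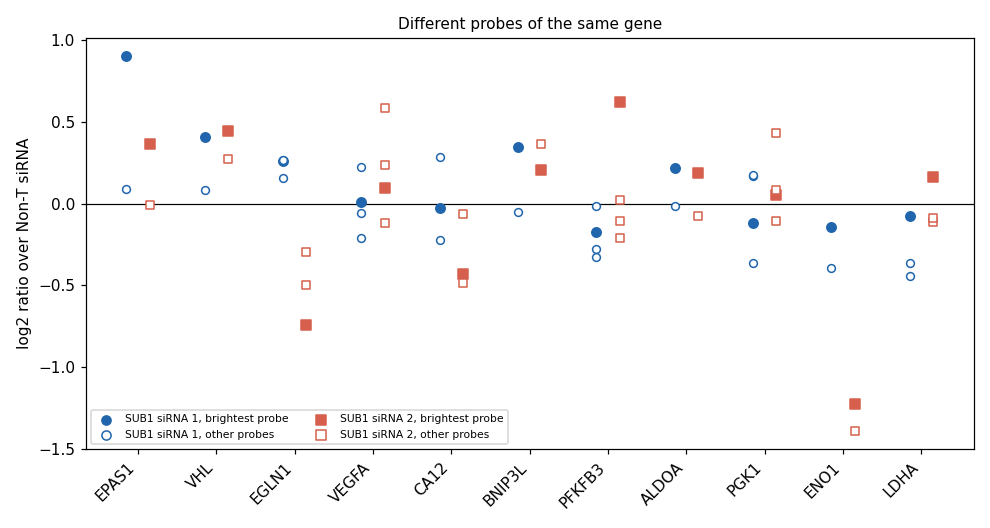
Log2 ratio over Non-T siRNA (vertical axis) of every kept probe of 11 members with several probes; filled symbols are the brightest probe, which stands for the gene, circles SUB1 siRNA 1 and squares SUB1 siRNA 2. Both ENO1 probes and all 3 EGLN1 probes hold the same pattern, whereas the probes of VEGFA and PGK1 lie on both sides of 0.

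Few of the 36 members passed a fold threshold, but with loess their shares at 1.5-fold were above those of all genes. At least 1.5-fold higher were 8.33% of members with siRNA 1 and 13.9% with siRNA 2, and lower 5.56% and 8.33%. This difference was not tested. With the processed signals, 0 members were 1.5-fold lower with siRNA 1, beside 4.67% of all genes. In that setting 5 and 8 of 36 were 1.5-fold higher, beside 13.9% and 17.6% of all genes. At 2-fold in either direction, 0 of 36 passed with siRNA 1 (0.812% of all genes) and 1, ENO1, with siRNA 2 (1.68%). At least 1.5-fold higher were 3 with siRNA 1 (EPAS1, ADM and HK2; 2.43% of all genes) and 5 with siRNA 2 (ADM, SLC2A1, HK2, PFKFB3 and PFKFB4; 3.51%). At least 1.5-fold lower were 2 with siRNA 1 (HIF1A and CA9; 3.02%) and 3 with siRNA 2 (HIF1A, EGLN1 and ENO1; 4.24%). ADM and HK2 were at least 1.5-fold higher with each siRNA, as were 0.791% of genes, and HIF1A 1.5-fold lower with each, as were 1.25%. With median centring, 10 and 13 members were at least 1.5-fold higher (7.01% and 9.36% of all genes) and 0 and 1 lower (1.40% and 2.16%). With siRNA 1 this setting raised the median from 0.02 to 0.13 over all genes and from 0.04 to 0.32 over the members. The bright PGK1 (41815 with Non-T siRNA on the first array) rose from -0.12 to 0.32, the dim LOX (129) from -0.22 to -0.19. The median signal of each member group was above the 262 of all genes. How far brightness accounts for these counts was not tested. The ratios of the 2 siRNAs differed by at least 2-fold for EGLN1 and ENO1, and for 1.26% of genes.

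By limma's test of the mean of both siRNAs, 0 of the 36 members passed an adjusted p of 0.05, and the lowest was 0.114. At an unadjusted p under 0.05, 14 of 36 passed, beside 20.8% of all genes: 4 of 5 regulators, 7 of 11 HIF targets outside glycolysis, 1 of 2 transporters and 2 of 18 glycolytic enzymes. The regulators' count includes the VHL probe on chromosome 9. The fit was also run on simulated data with 19218 rows, of which 200 were changed. At the adjusted threshold, a log2 change of 1 was recovered for 0 of 200 and a change of 2 for 197 of 200. Whether the measured ratios behave alike was not tested. The members' means were all under 1 in size.

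The medians of the HIF targets outside glycolysis and of the glycolytic enzymes differed by 0.17 with either siRNA, targets above enzymes. Over all normalisations and filters tried, this gap lay between 0.06 and 0.21 for siRNA 1, and between 0.13 and 0.28 for siRNA 2. With PDK1 counted among the enzymes it was 0.095 and 0.098, with EGLN1 among the targets 0.24 and 0.11. It has no test here, and the range within each group was wider: -0.71 to 0.60 and -0.43 to 0.73 among the targets, -0.41 to 0.63 and -1.23 to 0.80 among the enzymes. Under loess, median centring, the processed signals, the authors' ratios and no background correction alike, HIF1A, P4HA2 and LOX were below 0 on both arrays. Above 0 on both arrays in all of these were 16 members. They held the targets ADM, NDRG1, BNIP3, BNIP3L, PDK1 and P4HA1, and the enzymes HK2, PFKL, PFKM, PFKFB4, ALDOA and ENO2. The rest were SLC2A1, EPAS1, ARNT and VHL, the last by its probe on chromosome 9. These signs are those of the brightest probe. With loess, the second probe gave -0.12 and -0.004 for PFKL and -0.02 and -0.08 for ALDOA. It gave -0.05 with siRNA 1 for BNIP3L and -0.01 with siRNA 2 for EPAS1. The second probes of NDRG1, PDK1, HK2, ARNT and VHL were above 0 on both arrays.

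**Figure D4:**
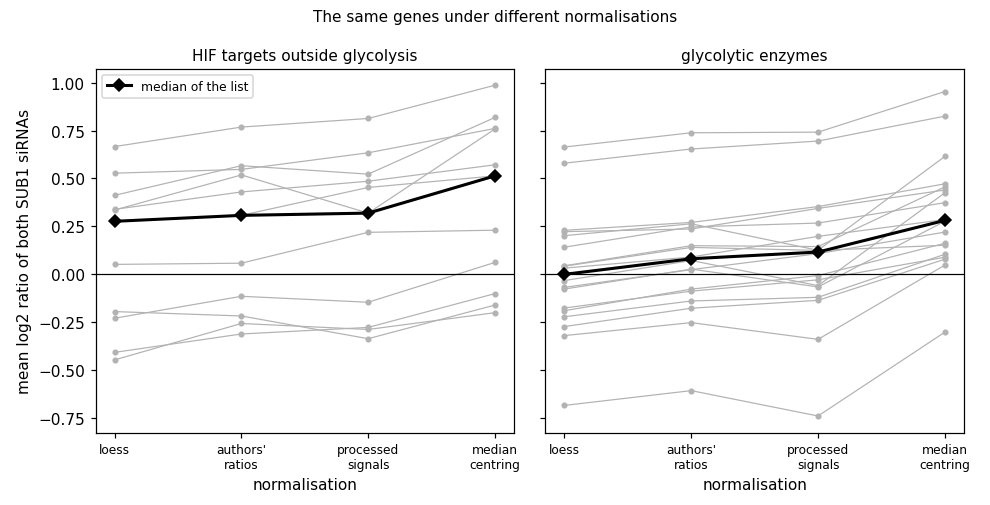
Mean log2 ratio of both siRNAs (vertical axis) under 4 normalisations (horizontal axis); each grey line is 1 gene and the black line the median of the group. Both medians are higher with median centring than with loess: 0.51 against 0.28 for the HIF targets, and 0.28 against 0.00 for the glycolytic enzymes. The enzyme median is 0.081 with the authors' ratios and 0.12 with the processed signals.

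The Non-T signal was steady between arrays. After scaling, the log2 difference of Cy3 between the arrays had an SD of 0.12 over all genes, and 29 of 36 members differed by under 0.1, with the extremes at -0.17 (ALDOA) and 0.28 (HK2). The same difference for Cy5, which held different siRNAs, had an SD of 0.31. All 63 kept member probes were well above background in all 4 channels.

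Wider lists of the same pathways, fixed with earlier results known, gave the surroundings of these genes. Of 10 other HIF regulators, none passed 2-fold. CITED2, a HIF-induced inhibitor of the HIF coactivators, had the highest mean, with ratios of 0.21 and 0.82, and CUL2, the scaffold of the VHL ligase, the lowest, with -0.65 and 0.01.

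Of 28 other HIF targets, 22 were tested, and their median was 0.11 with siRNA 1 and 0.34 with siRNA 2. At least 1.5-fold higher were 2 with siRNA 1 and 7 with siRNA 2, beside the 2.43% and 3.51% of all genes given above, and at least 1.5-fold lower were 3 and 0. DDIT4, an inhibitor of mTORC1 also known as REDD1, went from 2296 to 3275 on the first array and from 2407 to 7722 on the second, ratios 0.51 and 1.68. STC2, a stress-induced secreted glycoprotein, went from 1356 to 2447 on the first array and from 1425 to 3350 on the second, ratios 0.85 and 1.23. Both were higher on both arrays. IGFBP3, which binds insulin-like growth factors, went from 2043 to 771 on the first array and from 2023 to 2523 on the second, ratios -1.41 and 0.32; its second probe gave -0.94 and -0.11.

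Of 33 other glycolysis and pyruvate genes, 25 were tested, and their median was 0.02 and 0.07. PFKFB2, a further regulator of fructose 2,6-bisphosphate, had the highest mean, with ratios of 0.54 and 0.87 at a dim probe. DLAT, the E2 subunit of pyruvate dehydrogenase, had the lowest, going from 384 to 187 on the first array and from 384 to 383 on the second, ratios -1.04 and 0.00, and its 3 probes lay between -1.04 and -0.30 for siRNA 1. GAPDH, often taken as a reference gene, had ratios of 0.01 and -0.07 with loess.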

How the data were processed

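Two-colour array data of PC3 cells (1 array per SUB1 siRNA) were used. The authors scanned the arrays with Agilent Feature Extraction 9.5.1.1 (per the file headers) and deposited, for each spot, the intensity and local background of both channels before normalisation, together with flags of 0 or 1 (well above background, outlier) and the software's processed signals. A second deposited table holds the authors' log2 ratios, made with loess on each array by their methods, and served as an alternative. Its correlation with loess ratios from median spot signals without background correction, which are another alternative here, was 0.958 and 0.970. Probe coordinates are hg18 (NCBI36), per the file headers.

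Here, mean signals were background-corrected (normexp, offset 50), control and outlier spots (112 and 100) left out, log2 ratios normalised by loess (span 0.3; limma 3.58.1, R 4.3.3) and spots of a probe averaged. Intensities are given after loess and Aquantile scaling. Probes had to be flagged well above background, in either channel but on both arrays, in a share of 0.5 of their spots (25673 of 41000 passed); the brightest probe stood for a gene. The paper's rule of 2-fold and a limma test (lmFit with an intercept, eBayes, Benjamini-Hochberg) of the mean were applied to all 19218 genes; 1.5-fold was added. The fit was tested on simulated data. Genes named: members past 2-fold, the 8 highest and 8 lowest means, the 5 largest differences between siRNAs, and HIF1A, EPAS1, VHL, VEGFA, SLC2A1, PGK1 and LDHA; values of the other members are given to account for each. The members and lists were chosen with earlier results of these data known. Promoters are from RefSeq (GRCh38.p14). Some marker genes are not reported here. The number of arrays limits the precision.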

Additional observations from a re-analysis of the deposited data

How the results depend on the processing

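Of 40 results, 448 of 510 recalculations were counted as unchanged, 44 as moved and 18 as reversed. A result counted as unchanged could still differ in value. With median centring, 193 genes passed 2-fold with siRNA 1, against 156 with loess. The enzyme median with siRNA 2 went from 0.040 to -0.0013 with PFKFB3 and PFKFB4 left out. Both were counted as unchanged. Leaving out the probe on another chromosome was chosen after seeing the data and put VHL's mean at 0.18. Median centring in place of loess gave 19 of these 62 changes, more than any other alternative, and lifted the median of all genes to 0.12 (mean of both siRNAs). The cause was not tested.

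With median centring, members past 2-fold were 1 (siRNA 1) and 3 (siRNA 2), beside 193 and 367 of all genes; 1.5-fold higher were 10 and 13 (1348 and 1799 of all genes), lower 0 and 1 (269 and 416); 9 were higher and 0 lower with both (635 and 99). The target medians were 0.34, 0.44 and 0.51 (siRNA 1, siRNA 2, both), the enzyme medians 0.29, 0.30 and 0.28. Means turned to 0.062 (CA12), 0.079 (GPI), 0.43 (PGK1) and 0.048 (LDHB).

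With the processed signals, 1188 and 1590 genes passed 2-fold, and 479 with both, against 156, 323 and 36. Members 1.5-fold higher were 5 and 8 of 36 (13.9% and 17.6% of all genes). Lower were 0 with siRNA 1 and 0 with both (4.67% and 1.66%). Target medians were 0.24 and 0.35, enzyme medians 0.030, 0.11 and 0.12. With the authors' ratios, 1 member was 1.5-fold lower with siRNA 1 (2.57% of all genes) and 8 higher with siRNA 2 (4.27%). The target median with siRNA 1 was then 0.20, the enzyme medians 0.024, 0.12 and 0.081, and PGK1's mean 0.072.

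With the mean of all kept probes, members 1.5-fold higher were 1, 3 and 1 of 36 (siRNA 1, siRNA 2, both). The shares of all genes were 1.83%, 2.67% and 0.567%. In that setting 1 member differed 2-fold between siRNAs (1.05% of all genes), as with no background correction (1.14%). The target median with siRNA 2 was 0.29, the enzyme median of both -0.067, and the means of PFKFB3, PGK1 and LDHA were -0.058, 0.040 and -0.15. With EGLN1 counted among the targets (EGLN3 is not tested), the medians were 0.19 with siRNA 1 and 0.16 for both; with PDK1 moved to the enzymes the target median was 0.063 with siRNA 1, 0.15 with siRNA 2 and 0.16 for both.

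By limma, 0 genes passed without background correction, with median spot signals, median centring, processed signals or the authors' ratios, and 114 without a filter on dim probes; members past it stayed at 0 throughout. From 1 siRNA alone, the target median ran from 0.12 to 0.21, and the means of EGLN1 from -0.74 to 0.26, PFKFB3 from -0.18 to 0.62, PGK1 from -0.12 to 0.052 and LDHA from -0.076 to 0.17. Knockdown and control are paired within each array's ratio, and the limma test of the mean ratio used that pairing. No further blocking was added.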
